A study of Mus musculus with 195 samples.

Results

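The genes described here were the metallothionein genes Mt1, Mt2 and Mt3, the ferritin subunit genes Fth1 and Ftl1, and Tfrc, the gene of the transferrin receptor. They were chosen by name, and all 6 were found among the 19736 genes of the table of molecules per gene. Their molecules were counted in single mouse cells of 3 cultures by BATSeq, which sequences the polyadenylated 3′ ends of transcripts after each molecule has been tagged with a unique molecular identifier. A molecule gives 1 count whatever the length of its transcript, although short products were selected against in all libraries, which limits comparisons of level between genes.

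The cells came from 46C mouse embryonic stem cells, a line that carries GFP at the Sox1 locus. ESC-2i cells grew without serum in N2 and B27 with PD0325901 at 1 μM, CHIR99021 at 3 μM and LIF at 10 ng/ml. ESC-FCS cells grew in 10% fetal bovine serum with LIF at 10 ng/ml. NSC were neural stem cells made from the same line by sorting GFP-positive cells during monolayer differentiation, and they were grown in N2 and B27 with EGF and bFGF until GFP was lost. Beta-mercaptoethanol was in the medium of every culture, at a higher concentration in ESC-FCS. Only small cells in G0/G1 were sorted, 48 per culture in 2 library batches of 24 cells. Of these, 33 ESC-2i, 33 ESC-FCS and 41 NSC cells had at least 1000 molecules on genes and were in the table. A further 42 of 48 ESC-FCS control cells passed the same limit, and pools of 48 cells gave 1 ESC-FCS library and 2 ESC-2i libraries.

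Metallothioneins are small cysteine-rich proteins that bind zinc and copper, and Mt1 and Mt2 are the widely expressed pair whose transcription rises with zinc through the factor MTF1. Ferritin is the shell in which cells store iron, built from heavy chains (Fth1, which oxidizes iron) and light chains (Ftl1, which helps form the iron core). The transferrin receptor brings iron into the cell. Iron regulatory proteins bind hairpins called iron-responsive elements, which lie in the 5′ UTR of ferritin transcripts, where binding blocks translation, and in the 3′ UTR of Tfrc, where binding stabilizes the transcript.

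Molecules on genes ran from 5342 to 21049 over ESC-2i cells with a median of 10864, from 1079 to 14819 over ESC-FCS cells with a median of 6375, and from 1234 to 9037 over NSC cells with a median of 3282. The same 24 cell barcodes were used in all 8 batches of single cells, and 0 of the libraries held identical counts. The mitochondrial genome gave a median of 4.75% of molecules in NSC cells, against 1.71% and 1.57% in those of ESC-2i and ESC-FCS. The summed level of 12 pluripotency markers was 39.0 and 33.7 per 10000 molecules in ESC-2i and ESC-FCS, against 1.32 in NSC, where 8 of the 12 were at 0. The summed level of 13 neural stem cell markers, of which 11 were found by symbol, was 51.9 in NSC, against 1.95 in ESC-2i and 1.68 in ESC-FCS, and in NSC it was led by Fabp7 at 24.8 with Nes at 3.09, while Pax6 was at 0. Astrocyte markers summed to 16.2 in NSC, of which Aldoc made 15.5, and to 1.22 and 2.82 in ESC-2i and ESC-FCS. Neuron markers summed to 2.74 in ESC-2i, 5.38 for ESC-FCS and 4.67 for NSC, but from different genes. In this order of the cultures, Stmn2 stood at 2.52, 4.41 and 0, and Map2 at 0, 0.265 and 3.88. Fabp7 and Map2 were called variable between NSC cells by the test described further on. The part of these marker genes in the results was not tested. Markers of fibroblasts, primitive endoderm, oligodendrocytes and erythroid cells summed to at most 0.329 per 10000 in any culture.

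Mt3, Mt2 and Mt1 lie in this order on the plus strand of chromosome 8 (GRCm38), Mt3 at chr8:94152607-94154146, Mt2 at chr8:94172664-94173568 and Mt1 at chr8:94179082-94180327. Mt2 ends 5513 bases before Mt1 begins, and Mt3 ends 18517 bases before Mt2. Nearly all molecules of Mt1 and Mt2 ended in the terminal exon within 10 nt of the annotated end of the transcript, so the level of each gene is the level of a single 3′ end. The most used site held 99.7%, 99.5% and 98.0% of the Mt1 molecules of ESC-2i, ESC-FCS and NSC. A second Mt2 site at position 94173537 held 32 of 1207 molecules in ESC-2i and 15 of 270 in ESC-FCS. The last 30 bases of both annotated 3′ UTRs are shown, from the GENCODE M21 transcripts, with the polyadenylation signal in capitals. The most used sites, at 94180323 for Mt1 and 94173558 for Mt2, lie shortly before these annotated ends. The second Mt2 site lies before the stretch shown.
Mt1 3′ end, chr8:94180298-94180327, plus strand: cgtgaatAATAAAagcctgtttgagtctaa
Mt2 3′ end, chr8:94173539-94173568, plus strand: acAATAAAagccgttgacttgattaattca

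The 250 bases before the start of each gene in RefSeq (GRCm38.p6) were searched for the core of the metal response element that MTF1 binds, written TGCACNC or TGCGCNC, on both strands. In this stretch Mt1 held 1 match and Mt2 held 3, each given here with the core in capitals. Bases after the annotated start were not searched, so these numbers leave out any core there. Tfrc had 2 matches that overlap each other, and Mt3, Fth1 and Ftl1 had 0. Of 27025 genes, 21.3% had at least 1 match and 1.28% had at least 3, so a single match is common.
Mt1 core 1, chr8:94179055-94179083: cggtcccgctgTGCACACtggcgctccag
Mt2 core 1, chr8:94172384-94172412: agcatcgcctcTGCACCCggcccctcggg
Mt2 core 2, chr8:94172479-94172507: cgcagacccttTGCGCTCagctcctttgc
Mt2 core 3, on the other strand, chr8:94172557-94172585: ggggggagggcGTGTGCAggctctgtccc

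Mt1 was among the most abundant transcripts of ESC-2i and was lower in both other cultures. Pooled over cells, its level per 10000 molecules on genes in the cultures ESC-2i, ESC-FCS and NSC was 64.0, 17.9 and 6.52, with exact Poisson intervals at 95% of 61.5 to 66.7, 16.2 to 19.7 and 5.30 to 7.94. By level it ranked 8, 66 and 175 among all genes of these cultures. Each culture is 1 sample, so no test was made between cultures, and the intervals cover counting error only.

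Single ESC-2i cells had 11.2 to 103 Mt1 molecules per 10000 with a median of 61.9, in ESC-FCS cells the range was 0 to 82.9 with a median of 13.9, and in NSC it was 0 to 24.3 with a median of 5.81. As counted, the median number of Mt1 molecules was 67 per ESC-2i cell, 7 per ESC-FCS cell and 2 per NSC cell. The 2 ESC cultures overlapped, although 32 of 33 ESC-2i cells lay above the ESC-FCS median and 12 of 33 ESC-FCS cells lay below every ESC-2i cell. NSC and ESC-2i hardly overlapped, with 35 of 41 NSC cells below every ESC-2i cell. A molecule of Mt1 was seen in 33 of 33 ESC-2i cells, 31 of 33 ESC-FCS cells and 31 of 41 NSC cells, which is 100%, 93.9% and 75.6%. After thinning each cell to 1000 molecules, the expected share was 98.5%, 68.9% and 45.3%, in the same order of the cultures.

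Mt2 followed Mt1 in the ESC cultures and was almost unseen in NSC. Per 10000 molecules, ESC-2i held 32.8 (30.9 to 34.7), ESC-FCS held 11.9 (10.5 to 13.4) and NSC held 0.329 (0.107 to 0.768). Single cells had 9.36 to 64.6 in ESC-2i with a median of 32.2, and 0 to 36.7 in ESC-FCS with a median of 7.14. The 2 ESC cultures overlapped, with 13 ESC-2i cells above every ESC-FCS cell and 19 ESC-FCS cells below every ESC-2i cell. In NSC 36 of 41 cells had no Mt2 molecule and the other 5 had 1 each, so all 41 lay below every ESC-2i cell. Each of those 5 molecules rested on 1 read, whereas Mt1 had 9.47 reads per molecule in NSC and all genes together had 13.2. Of the site entries with 1 molecule in NSC, 33.1% rested on 1 read. Whether the 5 molecules came from NSC cells was not tested.

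Of the molecules of Mt1 and Mt2 together, Mt1 made up 66.1% in ESC-2i (exact Clopper-Pearson interval 64.6 to 67.7), 60.0% for ESC-FCS (56.2 to 63.7) and 95.2% for NSC (89.1 to 98.4). Both genes together held 0.968%, 0.298% and 0.0685% of all molecules of these cultures.

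Mt3, the family member known from the brain, was at or under the limit of detection throughout. It had 2 molecules over 33 ESC-2i cells, 2 over 33 ESC-FCS cells and 0 over 41 NSC cells, which allows up to 0.198 per 10000 in NSC. Both ESC-2i molecules ended within 10 nt of the annotated end, whereas both ESC-FCS molecules ended 1205 bases downstream of it. The control cells and all pools also had 0 molecules, and no ratio was formed for this gene.

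Fth1 was an abundant transcript at much the same share in every culture. Per 10000 molecules it stood at 13.4 for ESC-2i (12.3 to 14.7), 12.8 for ESC-FCS (11.4 to 14.4) and 12.2 for NSC (10.5 to 14.1). Over cells, the range was 4.10 to 19.2 for ESC-2i with a median of 14.1, 0 to 26.7 for ESC-FCS with a median of 12.1, and 0 to 35.7 for NSC with a median of 10.4. The cells of the 3 cultures overlapped over most of their range. A molecule was seen in 33 of 33, 32 of 33 and 37 of 41 cells, and at 1000 molecules per cell the expected share was 72.8%, 66.9% and 65.7%.

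Ftl1 had far fewer molecules than Fth1 in every culture. The cells of ESC-2i, ESC-FCS and NSC held 32, 29 and 5 molecules, which gave 0.869 (0.594 to 1.23), 1.28 (0.857 to 1.84) and 0.329 (0.107 to 0.768) per 10000. A molecule was seen in 16 of 33, 18 of 33 and 4 of 41 cells, and most single cells thus lay at 0 or at 1 molecule. Reads were kept by the authors only where they aligned to 1 place, and Fth1 and Ftl1 have processed copies elsewhere in the genome, so their levels may be too low by an unknown amount. The named copies Ftl1-ps1 and Fth-ps2 had 7 and 1 molecules in ESC-2i, 3 and 1 in ESC-FCS, and 0 and 1 in NSC.

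Tfrc was sparse as well, with 33 molecules over ESC-2i cells, 43 over ESC-FCS cells and 24 over NSC cells. Per 10000 molecules it stood at 0.896 for ESC-2i (0.617 to 1.26), 1.90 for ESC-FCS (1.37 to 2.56) and 1.58 for NSC (1.01 to 2.35). From a lowest value of 0 in each culture, single cells reached 4.51 (ESC-2i), 9.27 (ESC-FCS) and 10.4 (NSC), with medians of 0.667, 1.07 and 0. A molecule was seen in 18 of 33, 21 of 33 and 16 of 41 cells, and the ranges of the cultures overlapped.

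**Figure D1:**
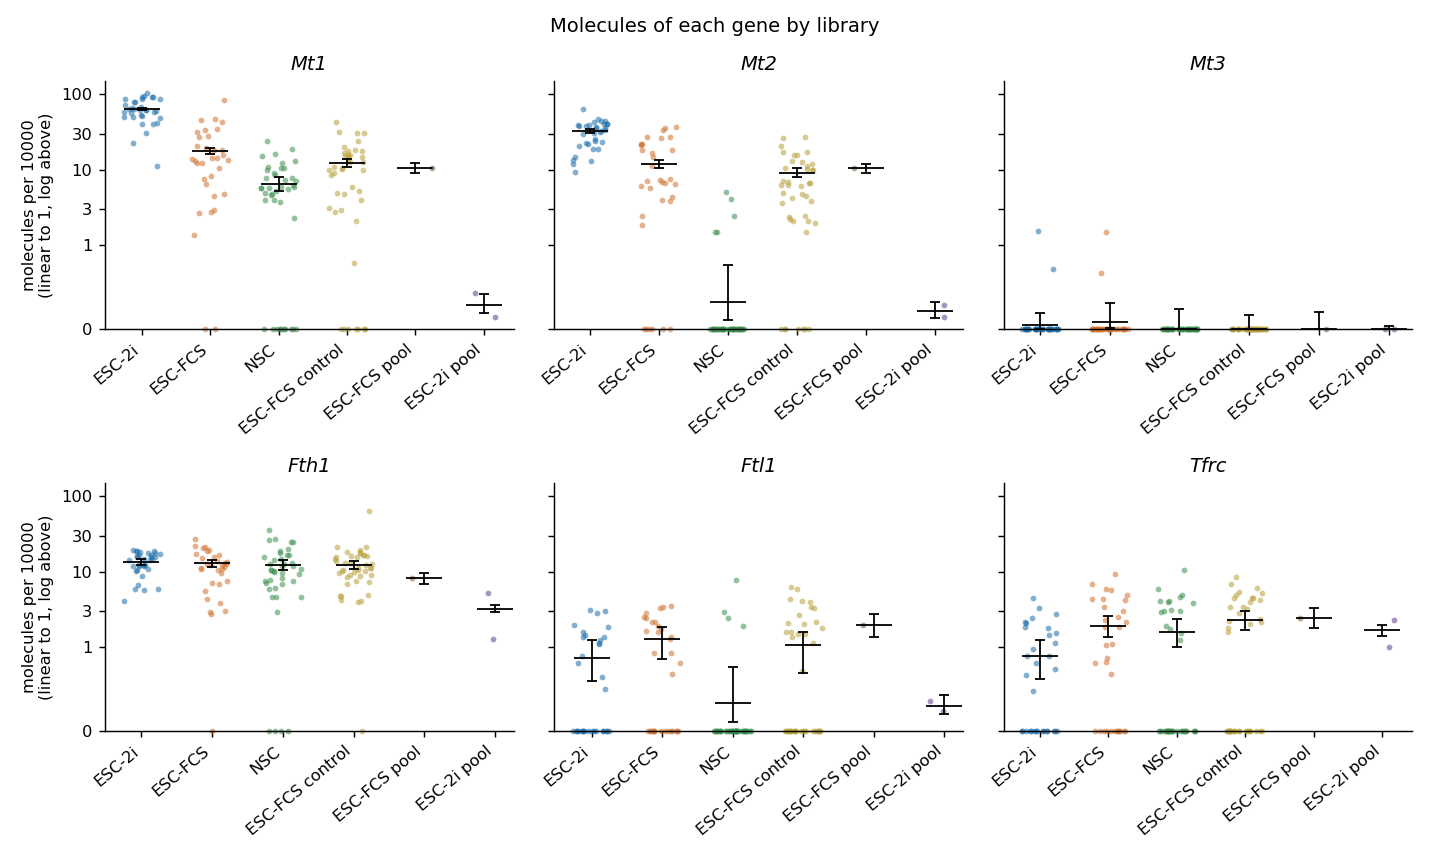
Molecules per 10000 molecules on genes (vertical axis, linear to 1 and logarithmic above) of the 6 genes in single cells of ESC-2i, ESC-FCS and NSC, in control cells of ESC-FCS and in the pools. Points are libraries, dashes are pooled levels and bars are exact 95% Poisson intervals. Mt1 stands at 64.0, 17.9 and 6.52 in the 3 cultures, with Fth1 at 13.4, 12.8 and 12.2.

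The iron genes carry the hairpins described above, and these are shown because they separate the ferritin transcripts from Tfrc. The search was for the loop CAGTGN with 5 paired bases on each side, G-T pairs allowed, and an unpaired C before the first of these. In GENCODE M21 transcripts (GRCm38), Fth1 and Ftl1 held 1 such element each in the 5′ UTR, Tfrc held 4 in the 3′ UTR, and the metallothioneins held 0. Among 21175 protein-coding genes, 0.146% had a match in a 5′ UTR and 0.609% in a 3′ UTR, and Tfrc was the 1 gene with 3 or more in a 3′ UTR. Capitals mark the loop, and sequences are given in the direction of the transcript.
Fth1 5′ UTR element, chr19:9982732-9982760, plus strand: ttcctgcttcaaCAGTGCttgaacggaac
Ftl1 5′ UTR element, chr7:45459779-45459807, minus strand: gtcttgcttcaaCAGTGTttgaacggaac
Tfrc 3′ UTR element 1, chr16:32631219-32631247, plus strand: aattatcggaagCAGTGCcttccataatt
Tfrc 3′ UTR element 2, chr16:32631598-32631626, plus strand: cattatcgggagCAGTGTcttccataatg
Tfrc 3′ UTR element 3, chr16:32631663-32631691, plus strand: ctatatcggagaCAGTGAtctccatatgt
Tfrc 3′ UTR element 4, chr16:32631710-32631738, plus strand: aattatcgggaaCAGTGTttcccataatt

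BATSeq gives the 3′ end of each molecule, so Tfrc molecules could be sorted by whether they end after these elements. After all 4 elements ended 29 of 33 molecules of ESC-2i cells, 34 of 43 of ESC-FCS cells and 21 of 24 of NSC cells, and every other molecule ended before the first of them. These are 87.9%, 79.1% and 87.5%, with exact intervals of 71.8 to 96.6, 64.0 to 90.0 and 67.6 to 97.3 that overlap, and no test was made. The 3′ UTR has 2458 bases and ends at 32632794, and most of the other molecules ended before it begins. In ESC-2i these were 3 at 32619173 and 1 at 32620464, and in NSC 3 at 32620464. In ESC-FCS, 2 of 9 ended inside the 3′ UTR, at 32630377, and 2 ended before it at 32618246, 1 at 32620464 and 1 at 32623993. In the control cells 45 of 51 molecules ended after the elements, in the ESC-FCS pool 44 of 44, and in the ESC-2i pools 127 of 162 (78.4%). Fth1 spans chr19:9980598-9985098 on the plus strand, and its main site at 9985089 held 99.4%, 100% and 99.5% of its molecules. Ftl1 spans chr7:45457944-45459884 on the minus strand, and its main site at 45457942 held 31 of 32, 29 of 29 and 5 of 5. In the ESC-2i pools that site held only 10 of 29 Ftl1 molecules, and 16 ended at 45456481, 1462 bases downstream. Tfrc spans chr16:32608920-32632794 on the plus strand. None of the 6 genes had an antisense molecule in the cells of the 3 cultures.

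Of the 6 genes, 5 had at least 20 molecules over both cultures in every comparison and were compared, while Mt3 had too few. Between the ESC cultures, Mt1 and Mt2 were past a 2-fold difference upwards in ESC-2i and Tfrc was past it downwards. Mt1 was 3.58 times higher in ESC-2i than in ESC-FCS (exact conditional interval 3.22 to 3.99) and Mt2 was 2.75 times higher (2.41 to 3.15). Tfrc was 2.12 times higher in ESC-FCS (1.31 to 3.44), and its fold fell under 2 in batch 1 (1.96) and for the median over cells (1.61). Among all 5007 genes compared, 14.5% were at least 2 times higher and 8.17% at least 2 times lower in ESC-2i.

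Fth1 and Ftl1 were not past the fold between the ESC cultures. Fth1 stood at 1.05 times its ESC-FCS level in ESC-2i (0.904 to 1.21), and Ftl1 at 0.679 times (0.398 to 1.16). When molecules were scaled to ERCC spike-in molecules in place of molecules on genes, the ratios of ESC-2i to ESC-FCS were 1.73 for Mt1, 1.33 for Mt2 and 0.507 for Fth1. On that scale neither metallothionein gene was past 2-fold, Fth1 was 1.97 times lower in ESC-2i and Tfrc was 4.37 times lower. Ftl1 was then 3.04 times lower in ESC-2i, and 2.70 times when reads were counted in place of molecules, both past the fold. ERCC transcripts gave a median of 7.83% of molecules in ESC-2i cells, 4.03% for ESC-FCS and 9.63% for NSC.

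In NSC, Mt1, Mt2 and Ftl1 were below ESC-FCS past the fold, and none of the 5 genes was above it. Mt1 was 2.74 times lower in NSC (2.20 to 3.45), Mt2 was 36.2 times lower (15.3 to 112) and Ftl1 was 3.89 times lower (1.49 to 12.9). Fth1 was 1.05 times lower (0.873 to 1.27) and Tfrc 1.20 times lower (0.712 to 2.07). Among 3600 genes, 20.9% were at least 2 times higher and 18.4% at least 2 times lower in NSC. With the control cells in place of the ESC-FCS cells, Mt1 was 1.87 times lower in NSC, which is under the fold. Scaled to ERCC molecules, all 5 genes were past the fold in NSC against ESC-FCS, with Mt1 6.96, Mt2 91.8, Fth1 2.67, Ftl1 9.86 and Tfrc 3.05 times lower. Counted in reads, Mt2 was 486 times lower.

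Against ESC-2i the same 3 genes were lower in NSC past the fold. Mt1 was 9.82 times lower (8.03 to 12.1), Mt2 was 99.5 times lower (42.5 to 307) and Ftl1 was 2.64 times lower (1.02 to 8.67). Counted in reads in place of molecules, Mt2 was 1180 times lower, and Ftl1 was 1.05 times lower, since it had 3.41 reads per molecule in ESC-2i and 8.80 in NSC. Tfrc was 1.76 times higher in NSC (0.998 to 3.08) and Fth1 was 1.10 times lower (0.930 to 1.31). Among 4803 genes, 19.3% were at least 2 times higher and 24.3% at least 2 times lower in NSC. A median-ratio factor in place of the totals lowers every log2 ratio by 0.31 for NSC over ESC-FCS and by 0.28 for NSC over ESC-2i. The split of higher to lower genes then turns from 752 and 663 to 561 and 893 against ESC-FCS, and from 927 and 1168 to 645 and 1488 against ESC-2i.

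**Figure D2:**
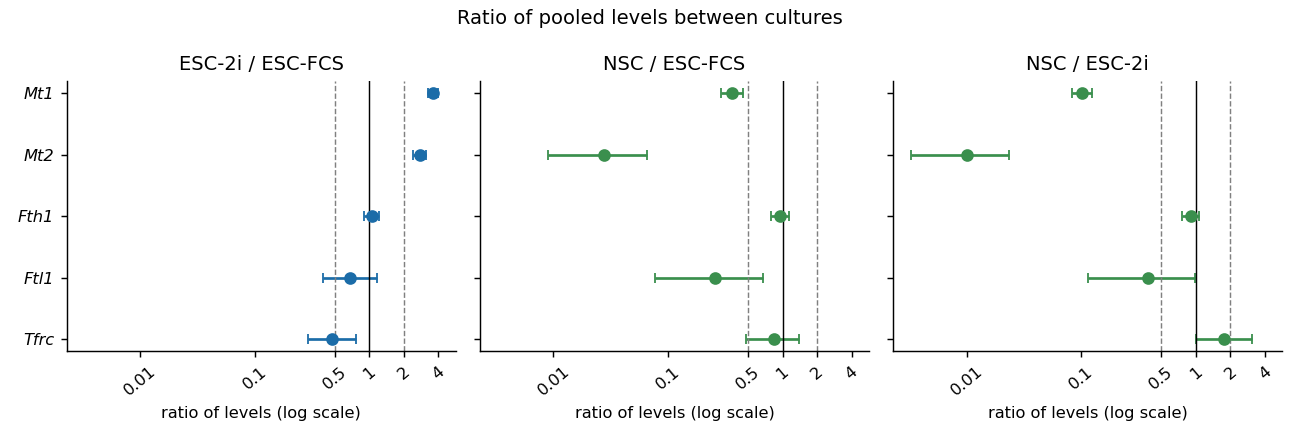
Ratio of pooled levels between cultures (horizontal axis, logarithmic) for the 5 genes compared, with exact 95% intervals of the counts. Dashed lines mark 2-fold. Mt1 and Mt2 lie right of 2 for ESC-2i over ESC-FCS and left of 0.5 in both comparisons of NSC, while Fth1 stays near 1 in all 3.

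The control cells, made on the same day as the ESC-FCS pool, gave a second measure of ESC-FCS cells. Mt1 stood at 12.2 per 10000 in them (10.8 to 13.7) and Mt2 at 9.15 (7.93 to 10.5), which is 0.683 and 0.768 times the level of the ESC-FCS cells. Fth1 was at 12.2, Ftl1 at 1.08 and Tfrc at 2.29. None of the 5 genes differed by 2-fold between control cells and ESC-FCS cells, where 9.23% of 4064 genes were at least 2 times lower and 15.9% at least 2 times higher in the control cells. As a share of molecules on genes, Mt1 differed 1.47-fold between these sets of cells in the same medium and 3.58-fold between the media. Per ERCC molecule the ratio between the media was 1.73, and taken from the pools it turned round to 36.7 times lower in ESC-2i. ESC-2i had no second set of single cells, and the variation between such sets was not tested.

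The ESC-FCS pool, made with the protocol of the single cells, stood close to the control cells. It had 10.5 Mt1 and 10.5 Mt2 molecules per 10000, 8.09 for Fth1, 1.95 for Ftl1 and 2.46 for Tfrc. None of the 5 genes was past 2-fold against the control cells, where 4.29% of 4056 genes were at least 2 times lower and 11.2% at least 2 times higher in the pool.

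The 2 ESC-2i pools went against the ESC-2i cells. Mt1 stood at 0.438 and 0.141 per 10000 in them and Mt2 at 0.292 and 0.141, so both pools lay below every ESC-2i cell for both genes. Over both pools, Mt1 was 223 times lower than in the cells (154 to 336), Mt2 152 times (99.0 to 246), Fth1 4.17 times (3.61 to 4.82) and Ftl1 2.92 times (1.71 to 5.00). The Ftl1 ratio counts molecules at every site, and only 10 of its 29 pool molecules ended at its main site. Tfrc, with the longest transcript of the 6, was 1.86 times higher (1.27 to 2.79). Among 8495 genes, 15% were at least 2 times lower and 38.8% at least 2 times higher in the pools. Taken from the pools, the comparison of media turns round, with Mt1 36.7 times and Mt2 48.7 times lower in ESC-2i than in ESC-FCS.

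These pools differed from all other libraries in how they were made, as their cells were lysed in a guanidine buffer with beta-mercaptoethanol and the RNA was purified on beads, and they held 0 ERCC molecules. Among genes with a molecule in both pool and cells, those with short transcripts were low in the pools as a class. Genes at 0 in a pool are left out of the medians and counts by length given here. In the pools 1 and 2, genes with a transcript of 500 to 750 bases had a median log2 ratio to the cells of −2.33 and −4.13, genes of 750 to 1000 bases had −1.08 and −2.95, and genes of 2500 to 5000 bases had 0.90 and 1.13. The transcripts of Mt1 and Mt2 have 549 and 511 bases, those of Fth1 and Ftl1 929 and 968, and that of Tfrc 4890. Mt1 was 146 and 452 times lower in pools 1 and 2 than in the cells. Of the genes with a transcript within 1.2 times of its length, itself counted, 0 of 145 and 0 of 129 had a lower ratio. Mt2 was 112 and 232 times lower, and 3 of 117 and 2 of 105 genes of like length had a lower ratio. Over all lengths and both pools, with genes at 0 kept, Mt1 ranked 41 and Mt2 49 from the lowest of 8495 genes. In the ESC-FCS pool the median of the class of 500 to 750 bases was −0.12. The share of length and of the preparation in the low metallothionein values of these pools was not tested.

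**Figure D3:**
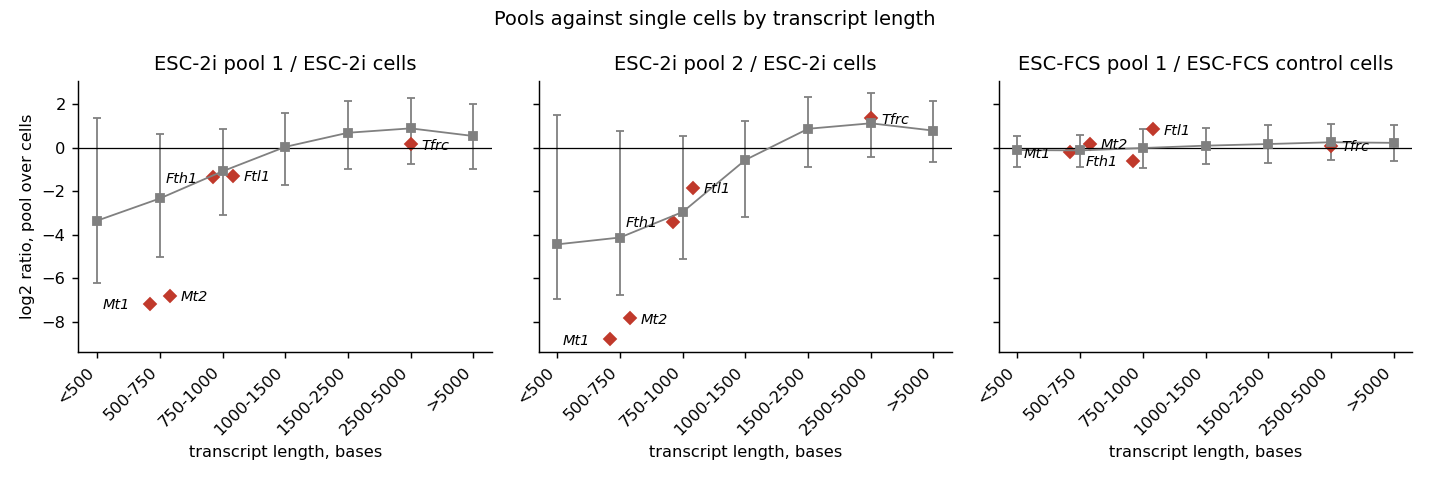
Log2 ratio of each pool to single cells (vertical axis) by length of the transcript (horizontal axis, bases), for genes with a molecule in both. Grey squares are medians and bars run from the 10th to the 90th percentile. Diamonds are the named genes, of which Mt1 and Mt2 lie at −7.19 and −6.81 in ESC-2i pool 1 and near 0 in the ESC-FCS pool.

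Within a culture, variation between cells was tested against noise fitted on ERCC transcripts plus a margin for the squared coefficient of variation (CV2) of 0.25, with the test of Brennecke and colleagues. It ran over all genes whose normalized mean exceeded 0.5, and a gene was called at an adjusted p (Benjamini-Hochberg) under 0.1. Cells were the units. Mt1 was called variable in ESC-FCS, and no other member was called where it was tested. Mt3 was not tested in any culture, and Mt2, Ftl1 and Tfrc were not tested in NSC, where their means were under 0.5. In ESC-FCS, 68 of 2026 genes (3.36%) were called, in ESC-2i 22 of 3616 (0.608%) and in NSC 86 of 1157 (7.43%).

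Mt1 had a CV2 of 0.812 between ESC-FCS cells, against a technical CV2 of 0.157 (adjusted p = 0.0317). Of 48 genes with a mean within 1.5 times of its own, 2 had a higher CV2, and their median was 0.226. The cell with the most Mt1 had 60 molecules, or 82.9 per 10000, and the next cell had 47.4. Without that cell the CV2 was 0.589 (adjusted p = 0.830), so the call rests on it. The call was also lost within batch 1 (adjusted p = 0.127), within batch 2 (adjusted p = 0.853) and at a margin of 0.5 (adjusted p = 1). At a margin of 0, the adjusted p was 1.18e-17.

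Mt2 in ESC-FCS had a CV2 of 0.793 and was not called (adjusted p = 0.273), but was called with size factors from totals (adjusted p = 0.0402) and at a margin of 0 (adjusted p = 1.83e-08). In the control cells Mt1 and Mt2 had a CV2 of 0.750 and 0.825 and were not called (adjusted p = 0.549 and 1), in a fit that rested on 7 spike-in transcripts. In ESC-2i the CV2 of Mt1 was 0.119 and that of Mt2 0.144, against technical values of 0.0407 and 0.0604. Neither was called (adjusted p = 1 for both), and both passed at a margin of 0 (adjusted p = 8.73e-06 and 0.00138). Of 22 genes of like mean in ESC-2i, 1 had a higher CV2 than Mt1. The CV2 of Mt1 was thus several times larger in ESC-FCS than in ESC-2i, and this difference itself was not tested. In NSC the CV2 of Mt1 was 0.782 at a mean of 2.05 molecules, against a technical 0.557 (adjusted p = 1).

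Fth1 was called in no culture. Its CV2 in the cultures ESC-2i, ESC-FCS and NSC was 0.0960, 0.365 and 0.526, against technical values of 0.112, 0.225 and 0.319 (adjusted p = 1 in each). In NSC it passed at a margin of 0 (adjusted p = 0.0372). In the control cells its CV2 was 0.706 against a technical 0.262, and it was not called (adjusted p = 0.489). Ftl1 and Tfrc had a CV2 of 1.62 and 1.47 in ESC-2i against 1.65 and 1.34, and of 1.29 and 1.41 in ESC-FCS against 2.43 and 1.21 (adjusted p = 1 in each).

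**Figure D4:**
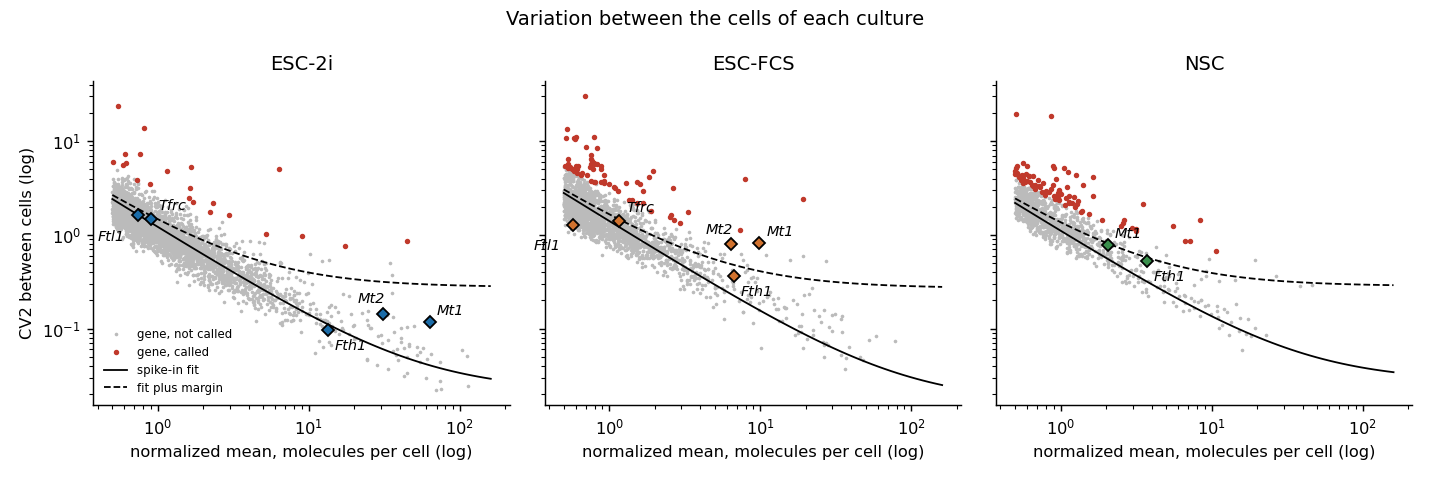
CV2 between cells (vertical axis, logarithmic) against the normalized mean in molecules per cell (horizontal axis, logarithmic) for all genes tested in each culture. Red points are called genes, the solid line is the fit to ERCC transcripts and the dashed line adds the margin. Diamonds are the named genes, and Mt1 and Mt2 in ESC-FCS stand at 0.812 and 0.793.

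Cells with more Mt1 also had more Mt2. Over 33 ESC-FCS cells the Spearman correlation of their levels was 0.81, with 0.82 and 0.87 in batches 1 and 2 and 0.80 without the cell with the most Mt1. Over 33 ESC-2i cells it was 0.58, with 0.37 and 0.65 in the batches, and over 42 control cells it was 0.50. These values are descriptions, as the cells of a culture share library and depth differences, and no p is given. The lowest ESC-2i cell for Mt1, at 11.2 per 10000, was also the lowest for Mt2, at 9.36.

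Fth1 did not follow the metallothioneins. Its correlation with Mt1 over the cells of ESC-2i, ESC-FCS and NSC was 0.06, 0.26 and −0.12, and its correlation with Tfrc was 0.31 in ESC-2i and −0.17 in ESC-FCS. Some technical values moved with the metallothioneins. In ESC-2i, Mt2 had a correlation of 0.44 with molecules per cell and Mt1 of −0.42 with the mitochondrial share, and in ESC-FCS Mt2 had 0.42 with the mitochondrial share. Their part in the correlations of Mt1 and Mt2 was not tested.

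**Figure D5:**
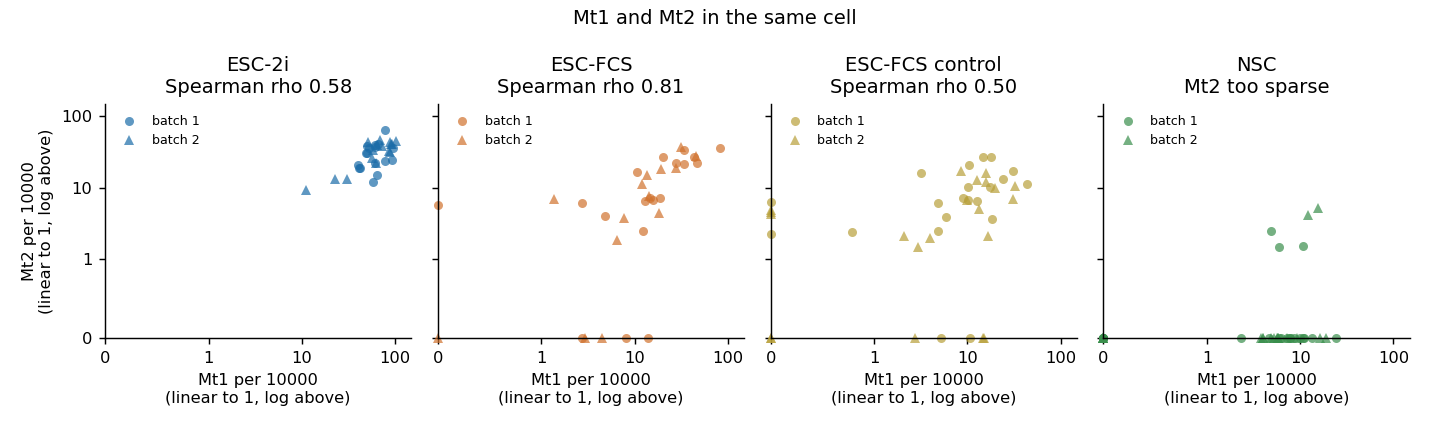
Mt2 against Mt1 in the same cell, both per 10000 molecules (axes linear to 1 and logarithmic above), in ESC-2i, ESC-FCS, ESC-FCS control cells and NSC. Points are cells, with a shape for each library batch, and Spearman correlations are 0.58, 0.81 and 0.50 in the first 3 panels.

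Among 2054 genes with at least 1 molecule per cell on average in ESC-2i, the 3 most like Mt1 across cells were Mt2 (0.58), Zmym4 (0.58) and Atp6v1f (0.54). For Mt2 they were Cox6b1 (0.63), Ppp1cb (0.59) and Mt1 (0.58). For Fth1 they were Gm4149 (0.69), Chchd3 (0.57) and Exoc4 (0.53). The 95th percentile of these correlations was 0.31 for Mt1, 0.35 for Mt2 and 0.29 for Fth1. In ESC-FCS, where 3 of these pairs could be measured, Mt1 and Mt2 had 0.81, Atp6v1f and Mt1 had 0.08, and Cox6b1 and Mt2 had 0.23. For the sparse genes, taken in ESC-FCS where their level was highest, Ftl1 was most like Atp6v0e (0.63), Srsf6 (0.61) and Gfpt2 (0.60), and Tfrc was most like Psme3 (0.56), Cops4 (0.48) and Ubap2 (0.48). In counts as sparse as these, such values are weak.

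The other genes of zinc and copper handling were mostly scarce. Of 30 in the list, 10 had enough molecules for ESC-2i against ESC-FCS. Of these, 3 were at least 2 times higher in ESC-2i (14.5% of all genes) and 0 at least 2 times lower (8.17%). The median log2 ratio of the 10 was 0.68, against 0.07 over all genes. The 3 higher ones were Ccs, the chaperone that gives copper to superoxide dismutase 1, at 8.98 times (3.68 to 28.5), and the zinc transporters Slc39a11 at 5.23 times (1.87 to 20.3) and Slc39a4 at 2.09 times (1.22 to 3.75). Mtf1 itself had 6 molecules over ESC-2i cells, 4 over ESC-FCS cells and 0 over NSC cells. Against ESC-FCS, 1 of 7 was higher in NSC (the zinc transporter gene Slc39a1, 2.99 times, 1.21 to 8.06) and 1 lower (Sod1, superoxide dismutase 1, 2.51 times, 2.01 to 3.16). Over all genes, 20.9% were higher and 18.4% lower past the same fold. Against ESC-2i, 2 of 11 were higher and 5 lower in NSC, where 19.3% and 24.3% of all genes were. The lower ones were led by Slc39a4, with 1 molecule in NSC and 61 in ESC-2i, at 25.2 times (4.35 to 1009). Ccs was 4.30 times lower, Slc39a11 3.50 times and Cox17, which carries copper to cytochrome oxidase, 2.99 times.

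Of 36 other genes of iron uptake, storage, release and regulation, 11 were compared between the ESC cultures. Of these, 3 were higher in ESC-2i and 0 lower, namely Glrx5 and Isca2, which act in the assembly of iron-sulfur clusters, at 3.57 times (1.37 to 11.8) and 2.12 times (0.985 to 5.06), and Aco1, which doubles as iron regulatory protein 1, at 3.00 times (1.38 to 7.43). Over all genes, 14.5% were higher and 8.17% lower in ESC-2i past the same fold. The median log2 ratio of the 11 iron genes was 0.13, against 0.07 over all genes. Ireb2, the gene of iron regulatory protein 2, stood at 1.83 times its ESC-2i level in ESC-FCS (1.02 to 3.31), which is under the fold. In NSC, 3 of 7 were higher than in ESC-FCS and 2 of 11 higher than in ESC-2i, led by Glrx5 at 11.3 times (4.46 to 36.9) and by Slc25a37, which carries iron into mitochondria, at 5.66 times (2.04 to 18.0), and 0 were lower in either comparison. Of all genes, 20.9% were higher and 18.4% lower in NSC against ESC-FCS, and 19.3% higher and 24.3% lower against ESC-2i. Few genes of these lists were abundant enough for the test of variation. In ESC-2i, 0 of 9 zinc and copper genes and 0 of 9 iron genes tested were called (0.608% of all genes), in ESC-FCS 0 of 3 and 0 of 4 (3.36%), and in NSC 0 of 2 and 1 of 4, Pcbp1 (7.43%). Across cells, the correlation of Mt1, Mt2 or Fth1 with the summed level of either list stayed between −0.40 and 0.32 in the 3 cultures.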

How the data were processed

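The deposited counts are numbers of molecules and reads per polyadenylation site and library, which the authors made by sorting reads by barcode, trimming poly-A tails, aligning with GSNAP to GRCm38 with ERCC sequences, dropping reads with several alignments or signs of internal priming, and merging identifiers and neighbouring sites, without normalization. The files used here still hold mitochondrial genes, and these were kept. The submitters' processing notes name HTSeq and R 3.0.2. Amplified cDNA of every library was cleaned on beads at a ratio chosen to remove short products, which bears on short transcripts. Molecules were summed per gene without antisense sites, and this sum equalled the deposited gene table in all but 4 of 2111752 entries. The names of the last columns of the per-library files are exchanged and were read by content.

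Of 144 cells, 107 were used, since 35 had fewer than 1000 molecules on genes and 2 others were not in the gene table. Levels are per 10000 molecules on genes with exact 95% intervals, which cover counting error only. A fold was formed with at least 20 molecules in both cultures together. Each culture is 1 sample, because the labels name no replicate cultures. The variance test was written in Python 3.11.15 (numpy 2.4.6, scipy 1.17.1, statsmodels 0.14.6) and tested on simulated data with seed 7. Technical noise was bounded below at counting noise after that test, in which false calls lay among genes of low mean. TMM factors came from edgeR 4.0.16 in R 4.3.3. Symbols were matched for 19321 of 19736 gene IDs. Sequences come from GENCODE M21 and RefSeq.

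All members are named, genes of the lists are named where they had at least 20 molecules and passed 2-fold (at most 4 per list and comparison, by size), and likeness was ranked by Spearman correlation (3 genes per member). Members, lists and tests were chosen with earlier results of these data known. Ireb2 and Mtf1 were named after their values were seen, as were Gpx4 and Prdx6 in the comparison of the ESC cultures.

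Alternatives covered the cells kept, batches, reads, totals, scaling, thresholds, spike-ins and margins.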

Additional observations from a re-analysis of the deposited data

How the results depend on the processing

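No paired analysis was possible because the labels number wells of plates, and these numbers join no samples across cultures. Under other choices, 152 of 180 values of the members' levels stayed within the counting interval. Of 203 values of their 15 ratios, 7 dropped under 2-fold, 5 passed it, 9 left the counting interval and 2 turned round. Both that turned came from pools in place of cells, a choice made after seeing the data, where the log2 ratio of ESC-2i over ESC-FCS was −5.20 for Mt1 and −5.61 for Mt2. Mt1 and Mt2 fell under 2-fold per ERCC molecule. The cause of the changes listed here was not tested.

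Counts over all genes moved with the thresholds. Genes past 2-fold numbered 1134 for ESC-2i against ESC-FCS, 1415 for NSC against ESC-FCS and 2095 for NSC against ESC-2i. They numbered 2204, 2861 and 3710 with at least 10 molecules, 327, 388 and 695 with at least 50, and 252, 587 and 902 at a fold of 4, and 2265 for the first comparison at a fold of 1.5. Genes called variable in ESC-2i numbered 22, and 115 and 12 at margins of 0 and 0.5, 5 with all spike-ins, 13 with factors from totals, 9 in batch 1, 13 with means above 1 and 107 with no filter. In ESC-FCS they numbered 68, and 193 and 34 at those margins, 114 with all cells of at least 1000 molecules, 40 in batch 1, 22 with means above 1 and 506 with no filter. In NSC they numbered 86, and 242 and 33 at those margins, 34 with factors from totals, 27 with cells of at least 2000 molecules, 35 and 33 in the batches, 34 with means above 1, 709 with no filter and 25 with antisense spike-in sites kept, a choice added later. Sparse counts limit Ftl1, Tfrc and Mt2 in NSC, and 1 culture per condition limits every comparison between media.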

Other observations

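A list of 35 genes of the oxidative stress response, chosen with earlier results known, gave values that stand beside those of the metallothioneins. Of 26 genes compared between the ESC cultures, 8 were at least 2 times higher and 2 at least 2 times lower in ESC-2i. Over all genes these shares were 14.5% and 8.17%. The list had a median log2 ratio of 0.58, against 0.07 over all genes. The largest ratios were those of Gss, of glutathione synthesis, with 55 molecules in ESC-2i and 2 in ESC-FCS, at 16.9 times (4.47 to 143), and of Keap1, the inhibitor of NFE2L2, with 21 and 1, at 12.9 times (2.08 to 534). The glutathione peroxidase gene Gpx1 stood at 32.6 per 10000 molecules in ESC-2i, against 6.84 and 6.06 in ESC-FCS and NSC, a ratio of 4.76 between the ESC cultures (4.03 to 5.67). Nqo1, a quinone reductase gene, was 4.72 times higher in ESC-2i (2.35 to 10.8). Lower in ESC-2i were Gpx4 at 2.84 times (1.34 to 6.34) and Prdx6 at 2.62 times (1.95 to 3.55). Gpx4 had 12 molecules in ESC-2i and 21 in ESC-FCS, and Prdx6 had 75 and 121. Against ESC-2i, 10 of 25 genes were lower and 2 higher in NSC, where 24.3% and 19.3% of all genes were. The median log2 ratio of the list was −0.85, against −0.05 over all genes. Nqo1 led the lower genes, with 1 molecule in NSC, at 28.4 times lower (4.94 to 1140). Gsta4, a glutathione transferase gene, was 9.10 times lower (6.15 to 14.1), Keap1 8.66 times (1.39 to 358) and Gss 5.67 times (2.09 to 21.5). Against ESC-FCS, 4 of 17 were lower and 1 higher in NSC, where 18.4% and 20.9% of all genes were. The lower ones were led by Gpx4, another glutathione peroxidase gene, at 7.03 times lower (1.72 to 61.9) and Gsta4 at 6.08 times lower (4.05 to 9.50). Of the genes of the list tested for variation between cells, 0 of 24 were called in ESC-2i, 0 of 11 in ESC-FCS and 1 of 8 in NSC, Gstm1. Over all genes tested, 0.608%, 3.36% and 7.43% were called in these cultures. No test was made between cultures.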
